A study of Mus musculus with 24 samples.

Results

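Transcripts that mark T, natural killer (NK) and B lymphocytes were followed along the intestine of mice treated with calcitriol, the hormone form of vitamin D (1,25-dihydroxyvitamin D3), and of vitamin D-deficient mice. The set was a fixed list of 37 symbols, of 21441 genes in each deposited table: 25 T and NK genes, 11 B genes, and Ptprc, which encodes CD45, the surface phosphatase of all white blood cells. All 37 were found in the duodenum, ileum and colon tables. The study compared bulk RNA of each region between C57BL6J wild-type mice given 3 injections of calcitriol (1 ng per g body weight, 48, 24 and 6 h before termination; 3xD) and deficient mice whose labels list no treatment (minusD), to find targets of the vitamin D receptor in the proximal and distal intestine. The labels give ages of 10 to 14 (3xD) and 10 to 13 (minusD) with no unit, and 2 females of 4 in each 3xD group and 1 of 4 in each minusD group. The values used here covered 4 3xD and 4 minusD libraries of duodenum and of colon, and 4 3xD and 3 minusD libraries of ileum. The extraction protocol covers whole tissues and isolated epithelium alike and does not say which was used for a given library, and the deficient diet is not described. Each library is taken as 1 mouse sample, and p-values measure the spread between these libraries only.

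T cells recognise antigen through a receptor whose CD3 and zeta chains signal by way of the kinases Lck and Zap70 and the adaptor Lat, and B cells through surface immunoglobulin whose signal passes through CD79a and CD79b. The gut epithelium holds many intraepithelial lymphocytes, most of them CD8 T cells that carry the integrin CD103 (Itgae) and store granzymes. A large share of those in the small intestine carry CD8 as a pair of alpha chains rather than as an alpha and a beta chain. B cells of the gut wall lie mainly in organised follicles such as Peyer's patches, which are unevenly spaced, while plasma cells lie scattered in the lamina propria.

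The libraries fell into naming schemes that nearly coincided with treatment. Serial numbers were carried by 3xD 1 and minusD 1, 2 and 3, and 4-digit numbers by 3xD5711, 3xD5720 and 3xD5734 and by minusD5718, which the ileum lacks. The whole reads recovered from the values came to 10740126 to 11747196 in the 4-digit duodenal libraries and 15217273 to 24162816 in the serial ones. Ileal libraries held 9811853 to 12387044 (4-digit) and 15541275 to 25989791 (serial), and colonic ones 11290524 to 13741474 and 20303095 to 22342749. More Xist than Ddx3y, as female mice have, was found in 0 of 4 serial libraries of each region, in 3 of 4 4-digit duodenal and colonic libraries and in 2 of 3 4-digit ileal ones. Cyp24a1, the calcitriol-inducible 24-hydroxylase, separated the groups in every region, at 2.67 to 641 FPKM in the 3xD and 0.00846 to 0.418 FPKM in the minusD libraries. Pdx1 and Hoxb13 matched the region labels. Pdx1 was at 22.4 to 45.5 FPKM in the duodenum and at most 0.727 FPKM elsewhere, and Hoxb13 at 90.8 to 239 FPKM in the colon and at most 1.14 FPKM elsewhere. The summed level of 3 ileum markers was 2427 to 11033 FPKM in the ileum and 98.3 to 392 FPKM in the colon. In the duodenum it was 13.0 to 297 FPKM in the 3xD and 5.19 to 22.2 FPKM in the minusD libraries. The 297 FPKM was in a 4-digit library. Because the schemes, depth and the likely sex of the animals moved together, the differences of the members as groups are also given within a scheme in each region, where 1 3xD library meets 3 minusD libraries (serial) or 3 meet 1 (4-digit).

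The promoter windows of 3 members are shown. Gzmb was the only member called, by naming scheme in the colon and not by treatment, in a comparison chosen after seeing the data. In the colon it reached 1 FPKM in serial libraries only. Gzma had the highest median of the members in the duodenum and ileum, and Cd79a was the most abundant B member. Each runs from 250 bases before to 50 bases after the annotated start (RefSeq, GRCm38.p6), 5′ to 3′ on the gene's strand, with capitals for CAGGTG (the E-box core), TGTGGT (the RUNX core) and GGTTCA (one of the half-site spellings of vitamin D response elements) or their reverse complements.
Gzmb, chr14:56262285-56262584, minus strand: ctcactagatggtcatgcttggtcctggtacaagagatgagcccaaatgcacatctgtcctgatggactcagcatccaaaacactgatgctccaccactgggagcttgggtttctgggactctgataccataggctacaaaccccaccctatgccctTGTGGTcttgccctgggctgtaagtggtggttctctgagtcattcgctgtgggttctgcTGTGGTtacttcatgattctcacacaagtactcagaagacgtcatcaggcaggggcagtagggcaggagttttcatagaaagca
Gzma, chr13:113100932-113101231, minus strand: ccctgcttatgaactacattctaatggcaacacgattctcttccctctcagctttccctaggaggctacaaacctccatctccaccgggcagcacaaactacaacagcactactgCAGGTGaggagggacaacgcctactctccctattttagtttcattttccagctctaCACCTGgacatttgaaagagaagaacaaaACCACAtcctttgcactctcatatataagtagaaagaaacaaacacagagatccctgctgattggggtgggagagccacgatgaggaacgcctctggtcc
Cd79a, chr7:24897247-24897546, plus strand: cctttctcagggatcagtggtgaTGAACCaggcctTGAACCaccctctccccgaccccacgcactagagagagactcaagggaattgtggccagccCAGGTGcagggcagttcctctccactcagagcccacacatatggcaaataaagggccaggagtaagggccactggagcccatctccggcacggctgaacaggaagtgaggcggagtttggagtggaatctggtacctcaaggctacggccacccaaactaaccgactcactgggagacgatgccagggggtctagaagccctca
Of the 37 members, 24 had such windows, 30 in all. CAGGTG on either strand was found in 15 of the 30, against 20.2% of all 32851 windows, and in 11 of 19 T and NK windows. TGTGGT was found in 11 of 30, against 16.8%, with 9 of these in T and NK windows. The half-sites GGTTCA and AGGTCA were found in 4 and 2 of 30, against 10.4% and 16.3%, and the octamer ATTTGCAT, bound by the partners of Pou2af1, in 0 of 30, against 1.74%. CAGGTG and AGGTCA share the letters AGGT but differ in the next base, so 1 AGGT cannot count for both. A match describes the window only.

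In the annotation that goes with mm9 (NCBIM37, GENCODE vM1), Gzmb lies at chr14:56877693-56881097, Gzma at chr13:113884033-113891187 and Cd79a at chr7:25682400-25687216. Cd3g (chr9:44777655-44788514), Cd3d (chr9:44789876-44795135) and Cd3e (chr9:44806826-44817673) are neighbours that do not overlap.

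T and NK transcripts had their highest levels mostly in the duodenum, and B transcripts in the ileum. Over all libraries of a region, 16 of the 25 T and NK members had their highest median in the duodenum, 8 in the ileum and 1 in the colon, while 10 of the 11 B members had it in the ileum and 1 (Tnfrsf17, the plasma cell receptor BCMA) in the colon. Gzma, a serine protease of cytotoxic granules, had medians of 116 FPKM (duodenum), 40.7 FPKM (ileum) and 4.91 FPKM (colon). Gzmb, the granzyme that cleaves caspases, followed the same order at 23.1, 8.25 and 2.29 FPKM. Cd3e, the epsilon chain of the CD3 complex, had medians of 6.37, 4.34 and 1.59 FPKM, and Cd7, a surface receptor of T and NK cells, of 23.9, 8.84 and 4.97 FPKM. Ms4a1, which encodes CD20, had 3.17 FPKM (duodenum), 6.60 FPKM (ileum) and 2.42 FPKM (colon), and Cd79a 14.0, 18.4 and 9.57 FPKM. The tables were normalised separately, so these levels are a description. For every member the duodenal and ileal libraries overlapped, and for all 11 B members the ileal and colonic libraries overlapped too. Of the members, 5 T and NK and 0 B ones were higher in every duodenal than in every colonic library. No share of all genes is given for that order, so the count cannot be read as particular to these members.

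Ratios within a library do not depend on that scaling. Cd8b1, the CD8 beta chain, reached 3.91 to 10.2% of the level of Cd8a (FPKM per FPKM) in the 3xD and 8.02 to 18.2% in the minusD duodenal libraries. In the ileum the range was 19.3 to 61.1% in 3xD and 28.7 to 61.2% in minusD libraries, and in the colon 10.9 to 63.004% and 32.8 to 62.5%. Every duodenal library lay below every ileal one. Cd4 per Cd8a stood at 0.270 to 0.494 and 0.336 to 0.533 in the 3xD and minusD libraries of the duodenum. Ileal values were 0.572 to 0.933 and 0.403 to 0.698, and colonic ones 0.610 to 1.24 and 0.667 to 1.72. Gzma per Cd3e ran from 17.2 to 29.3 in 3xD and 15.3 to 36.4 in minusD duodena, from 8.71 to 13.9 and 9.38 to 25.5 in ilea, and from 0.485 to 5.34 and 0.890 to 5.97 in the colon. In every region the treatment groups overlapped in these 3 ratios.

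**Figure D1:**
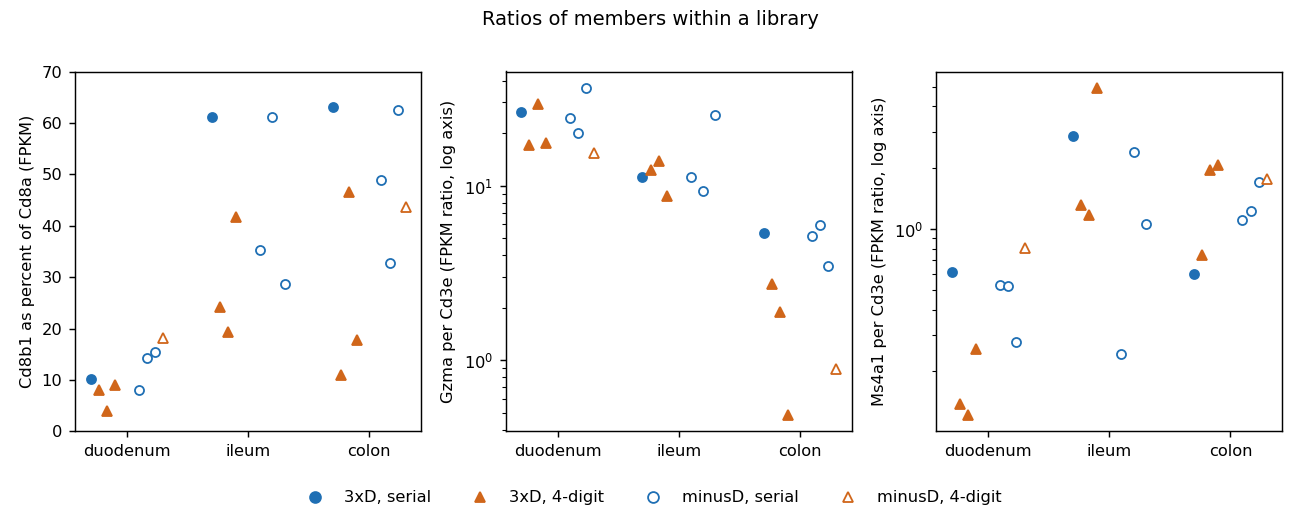
Cd8b1 as a percent of Cd8a, Gzma per Cd3e and Ms4a1 per Cd3e (ratios of FPKM, the last 2 panels on log axes) in each library of the 3 regions; filled symbols are 3xD and open symbols minusD libraries, circles serial and triangles 4-digit. All duodenal libraries lie between 3.91% and 18.2% for Cd8b1, below all ileal ones, and the treatment groups overlap in Gzma per Cd3e in each region.

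In the duodenum, lymphocyte transcripts were mostly lower in the 3xD than in the minusD libraries, but 0 members passed the test. Of 25 T and NK members 20 had at least 1 FPKM in at least 3 libraries and were tested, and 19 of these had a negative log2 difference, with a median of -0.61. All 8 tested B members of 11 had one, with a median of -0.80, against a median of 0.01 over all 11734 genes tested, 48.1% of which were lower. Among the tested members, Cd8b1 and Blk reached 1 FPKM in minusD libraries only. Both were therefore tested only through the group where they were high. limma called 0 members at an adjusted p under 0.05 (0.0256% of all genes), and voom on recovered reads also called 0. At an unadjusted p under 0.05, 9 T and NK and 5 B members were lower and 0 were higher, against 5.37% and 4.03% of all genes. Counting members below the filter, 36 of 37 had a negative difference. Fewer cells of a type and less RNA per cell cannot be told apart in such bulk samples. Without 3xD5720 the T and NK median was -0.40 and without minusD 3 it was -0.41. In the order 3xD 1, 3xD5711, 3xD5720 and 3xD5734 and minusD 1, 2, 3 and minusD5718, which holds for all lists of values below, the mean log2(FPKM + 1) of the 25 T and NK members was 2.50, 2.09, 1.55 and 1.93 in the 3xD libraries, against 2.56, 2.29, 2.92 and 2.27 in the minusD libraries. That of the 11 B members was 2.06, 1.10, 0.51 and 0.98 in the 3xD libraries, against 1.99, 1.76, 2.15 and 1.82 in the minusD libraries. The groups overlapped through 3xD 1, while 3xD5720 was the lowest library, or tied at 0, for 19 of 25 T and NK and 11 of 11 B members. No share of all genes is given beside counts of a lowest or highest library, here or in the ileum. Such counts describe the members only.

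**Figure D2:**
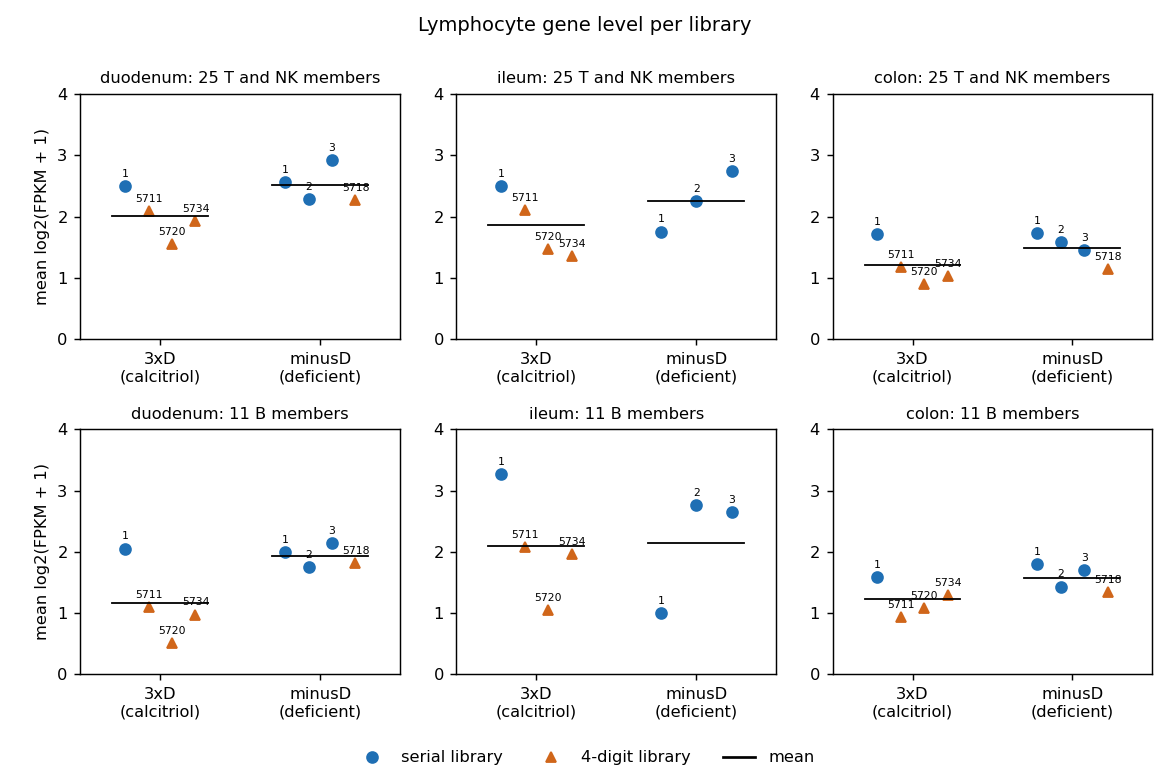
Mean log2(FPKM + 1) of the 25 T and NK members (top) and 11 B members (bottom) in each library, 3xD left and minusD right; circles are serial and triangles 4-digit libraries, labelled by number, and lines are group means. Among 3xD libraries the serial one is the highest in all 6 panels, and the ileal B level spans 1.00 to 3.27.

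The antigen receptor chains and their signalling partners differed by unequal amounts in the duodenum. Cd3e had 6.77, 6.12, 2.48 and 4.91 FPKM in the 3xD libraries, against 7.58, 6.34, 10.9 and 6.40 FPKM in the minusD libraries. Its log2 difference was -0.57 ± 0.26 (SE; limma adjusted p = 0.531), with overlapping groups. Zap70, the kinase recruited to the zeta chain, had 1.84, 0.414, 0 and 1.20 FPKM in the 3xD libraries, against 2.64, 2.46, 3.48 and 1.97 FPKM in the minusD libraries. Every 3xD library lay below every minusD library, with a difference of -1.06 ± 0.31 (SE; limma adjusted p = 0.499), and the 0 of 3xD5720 stood beside 65 to 271 recovered reads in the minusD libraries. Cd2, an adhesion receptor of T and NK cells, had 1.09, 0.641, 0.198 and 0.666 FPKM in the 3xD libraries, against 1.61, 1.54, 1.95 and 1.31 FPKM in the minusD libraries. Its groups were also fully apart, at -0.68 ± 0.18 (SE; limma adjusted p = 0.485). In all, 3 members (Zap70, Cd2 and Blk) were apart in this direction, against 2.38% of all genes, and 0 in the other, against 1.99%. Blk passed the filter through minusD libraries alone. Of the receptor chains and partners, Lck, Lat, Cd247, Cd3d and Cd3g differed by -0.80 to -0.34.

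The coreceptors and cytotoxic genes of the duodenum mostly had their lowest values in 4-digit 3xD libraries. Cd8a had 8.51, 7.10, 4.98 and 5.95 FPKM in the 3xD libraries, against 10.6, 8.01, 13.4 and 7.98 FPKM in the minusD libraries, a difference of -0.52 ± 0.20 (SE; limma adjusted p = 0.499). The coreceptor Cd4 had 4.18, 3.51, 2.14 and 1.60 FPKM in the 3xD libraries, against 4.76, 2.94, 4.51 and 4.25 FPKM in the minusD libraries, at -0.45 ± 0.23 (SE; limma adjusted p = 0.552). For both genes 3xD 1 lay inside the range of the minusD libraries. Itgae, which binds E-cadherin of the epithelium, had 4.28, 4.77, 2.19 and 1.08 FPKM in the 3xD libraries, against 8.02, 5.78, 9.47 and 4.30 FPKM in the minusD libraries. Only minusD5718 lay below the highest 3xD library, and the difference was -1.02 ± 0.34 (SE; limma adjusted p = 0.499). Gzma had 179, 105, 72.7 and 86.7 FPKM in the 3xD libraries, against 185, 128, 396 and 98.2 FPKM in the minusD libraries, at -0.73 ± 0.43 (SE; limma adjusted p = 0.580), and minusD 3 was above all others. Gzmb had 27.9, 19.7, 10.5 and 15.8 FPKM in the 3xD libraries, against 37.2, 22.6, 36.3 and 23.6 FPKM in the minusD libraries, at -0.71 ± 0.28 (SE; limma adjusted p = 0.526). Klrd1, the CD94 chain of NK receptors, had 9.42, 8.44, 5.15 and 4.28 FPKM in the 3xD libraries, against 7.11, 4.68, 12.1 and 6.77 FPKM in the minusD libraries. It differed least among the T and NK members tested, at -0.14 ± 0.29 (SE; limma adjusted p = 0.867).

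The cytokine receptors had duodenal differences of opposite sign, neither of them called. Il2rb, the beta chain shared by the receptors of interleukins 2 and 15, had 3.90, 3.16, 1.52 and 2.44 FPKM in the 3xD libraries, against 5.01, 3.54, 6.22 and 5.57 FPKM in the minusD libraries, a difference of -0.72 ± 0.22 (SE; limma adjusted p = 0.499). Il7r, the interleukin 7 receptor chain, was the only tested T or NK member with a positive difference. Its levels were 2.09, 1.70, 0.640 and 1.21 FPKM in the 3xD libraries, against 0.742, 1.01, 0.774 and 0 FPKM in the minusD libraries, at 0.57 ± 0.26 (SE; limma adjusted p = 0.531). The difference of Il7r was 0.75 among serial and 1.10 among 4-digit libraries. Ptprc had 5.68, 6.86, 2.88 and 2.31 FPKM in the 3xD libraries, against 12.2, 9.01, 5.997 and 4.56 FPKM in the minusD libraries, at -0.73 ± 0.34 (SE; limma adjusted p = 0.534), with overlapping groups.

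The duodenal B members were mostly lowest in 4-digit 3xD libraries. Ms4a1 had 4.15, 0.848, 0.303 and 1.26 FPKM in the 3xD libraries, against 4.01, 3.32, 3.02 and 5.17 FPKM in the minusD libraries. The 3 4-digit 3xD libraries lay below all minusD libraries and 3xD 1 inside their range, for a difference of -1.07 ± 0.37 (SE; limma adjusted p = 0.499). Cd79a had 20.3, 5.81, 1.40 and 6.48 FPKM in the 3xD libraries, against 16.1, 13.7, 25.8 and 14.2 FPKM in the minusD libraries, at -1.32 ± 0.56 (SE; limma adjusted p = 0.526). Blk, a Src-family kinase of B cells, had 0.846, 0.133, 0.0824 and 0.226 FPKM in the 3xD libraries, against 1.10, 0.961, 1.05 and 1.33 FPKM in the minusD libraries, and its groups were fully apart at -0.71 ± 0.18 (SE; limma adjusted p = 0.483). It reached 1 FPKM in minusD libraries only, so it passed the filter through that group alone. Fcer2a, the low-affinity IgE receptor CD23, had 1.51, 0.297, 0 and 0 FPKM in the 3xD libraries, against 2.13, 1.72, 0.889 and 1.27 FPKM in the minusD libraries. It differed by -0.87 ± 0.30 (SE; limma adjusted p = 0.499), with overlapping groups. Pou2af1, a transcriptional coactivator of B cells, had 7.27, 3.59, 0.951 and 2.03 FPKM in the 3xD libraries, against 7.15, 3.69, 10.3 and 2.96 FPKM in the minusD libraries, and Tnfrsf17 had 3.49, 1.19, 0.204 and 0.467 FPKM in the 3xD libraries, against 1.78, 2.04, 7.47 and 0.303 FPKM in the minusD libraries. For both, every 4-digit library lay below every serial library. Cr2, the complement receptor CD21, did not reach the filter and was listed at 0.962, 0.272, 0 and 0.305 FPKM in the 3xD libraries, against 0.978, 0.791, 1.03 and 1.41 FPKM in the minusD libraries.

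Within the naming schemes the duodenal differences were unequal. Here and in the other regions, counts of members that lay lower, higher or fully apart within or between schemes also covered members below the filter. The shares of all genes beside these counts were over genes past the filter only. Of 3xD 1 against the serial minusD libraries, 17 of 25 T and NK and 2 of 11 B members were lower, with median differences of -0.11 and 0.11, against 48.9% of all genes. Of the 4-digit 3xD libraries against minusD5718, 24 and 10 were lower, with medians of -0.42 and -1.03, against 49.5%. All 3 lay below minusD5718 for 17 T and NK and 9 B members, against 29.9% of all genes, and above it for 1 and 0, against 30.3%. With the scheme in the fit the medians were -0.36 and -0.54 and 0 members were called, against 0.00852% of all genes. Within one treatment, the 4-digit 3xD libraries all lay below 3xD 1 for 22 of 25 T and NK and 11 of 11 B members, against 21.4% of all genes, and above it for 0, against 22.9%. The 4-digit minusD library lay below the 3 serial ones for 12 T and NK and 2 B members and above them for 1 and 5, against 27.3% and 27.6%. The 4-digit duodenal libraries also carried stomach transcripts: the summed level of 9 stomach markers was 6251 to 9150 FPKM in the 4-digit and 139 FPKM in the serial 3xD libraries, and 12368 FPKM in the 4-digit and 40.5 to 215 FPKM in the serial minusD libraries. All 7 tested stomach markers passed the test of the scheme, higher in 4-digit libraries, against 0.256% of all genes called. Of 7 tested smooth muscle markers, 6 were lower in the 4-digit libraries at an unadjusted p under 0.05 (median -0.72), against 3.22% of all genes. By treatment, all 7 tested MHC class II genes, which B cells share with dendritic cells and macrophages, had a negative difference (median -0.47), with summed levels of 408 to 1090 FPKM in the 3xD and 785 to 2321 FPKM in the minusD libraries. All 9 exocrine pancreas markers did too (median -0.67), at 764 to 30428 FPKM in the 3xD and 6948 to 48649 FPKM in the minusD libraries. The part of these tissues, depth and sex in the lymphocyte differences was not tested.

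**Figure D3:**
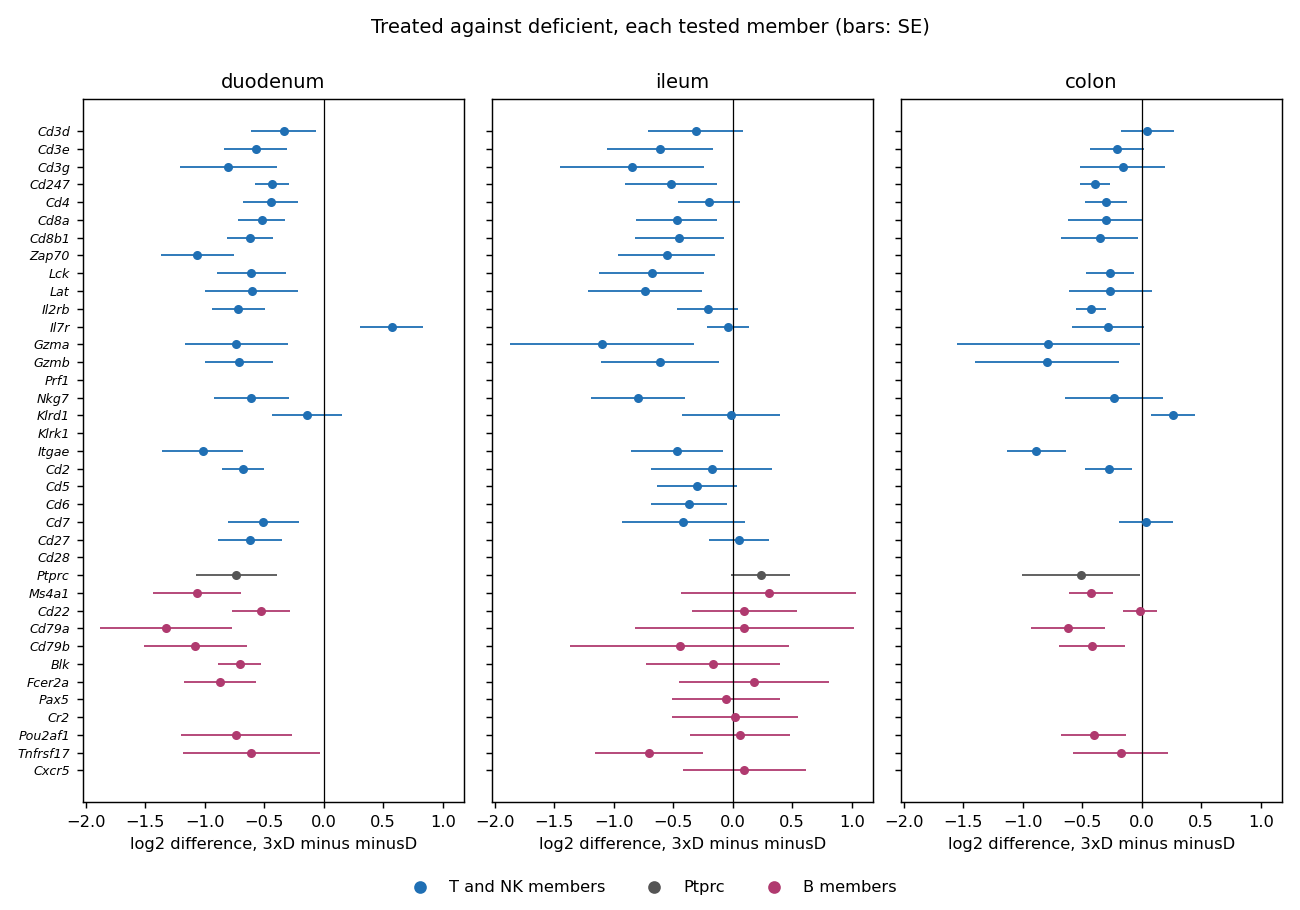
Log2 difference, 3xD minus minusD, of each tested member in the duodenum, ileum and colon (points, with SE bars); blue marks T and NK members, grey Ptprc and purple B members, and untested members have no point. In the duodenum all points but Il7r lie below 0, and in the ileum B members lie between -0.70 and 0.30.

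In the ileum the T and NK members were mostly lower in the 3xD libraries and the B members lay on both sides of 0, with 0 members called. Of 22 tested T and NK members 21 had a negative difference, with a median of -0.46, and 4 of 11 tested B members had one, with a median of 0.06. The median of all 12149 genes tested was 0.01, and 48.3% were lower. limma called 0% of all genes, voom also called 0 genes, and 0 members reached an unadjusted p under 0.05, against 2.74% of all genes lower and 3.09% higher. In 0 members were the groups fully apart, against 3.21% lower and 3.35% higher of all genes. The T and NK median was -0.26 without 3xD5720, -0.26 without 3xD5734, -0.22 without minusD 3, -0.72 without 3xD 1 and -0.71 without minusD 1. The B median ran from -0.52 without minusD 1 to 0.35 without minusD 2, and was -0.31 without 3xD 1. Mean log2(FPKM + 1) of the T and NK members was 2.50, 2.11, 1.47 and 1.35 in the 3xD libraries, against 1.76, 2.25 and 2.74 in the minusD libraries, where the ileum has no minusD5718. That of the B members was 3.27, 2.07, 1.05 and 1.96 in the 3xD libraries, against 1.00, 2.76 and 2.66 in the minusD libraries. Each treatment group thus held both high and low libraries.

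Ileal T and NK members varied widely within each group. Cd3e had 5.76, 5.06, 1.79 and 1.18 FPKM in the 3xD libraries, against 3.47, 4.34 and 8.36 FPKM in the minusD libraries, a difference of -0.61 ± 0.44 (SE; limma adjusted p = 0.712). Lck had 8.16, 4.20, 1.76 and 1.94 FPKM in the 3xD libraries, against 3.75, 6.79 and 8.74 FPKM in the minusD libraries, at -0.68 ± 0.44 (SE; limma adjusted p = 0.706). Lat had 8.21, 3.53, 1.84 and 1.82 FPKM in the 3xD libraries, against 2.97, 8.16 and 8.97 FPKM in the minusD libraries, at -0.74 ± 0.48 (SE; limma adjusted p = 0.706). In these 3 genes 3xD5720 and 3xD5734 were the lowest libraries. Lck was at -1.03 without 3xD 1, -0.45 without 3xD5720 and -0.46 without minusD 3, and Lat at -1.16 without minusD 1 and -0.50 without minusD 3. Nkg7, a granule membrane protein of cytotoxic cells and the T or NK member with the smallest p here, had 7.82, 7.92, 2.48 and 3.29 FPKM in the 3xD libraries, against 6.65, 7.93 and 14.4 FPKM in the minusD libraries, at -0.80 ± 0.40 (SE; limma adjusted p = 0.706) and at -0.50 without minusD 3. Gzma had 64.5, 62.2, 24.9 and 10.3 FPKM in the 3xD libraries, against 39.1, 40.7 and 213 FPKM in the minusD libraries, with minusD 3 above all others, at -1.10 ± 0.77 (SE; limma adjusted p = 0.712). Gzmb had 11.7, 9.32, 7.28 and 2.60 FPKM in the 3xD libraries, against 8.25, 7.14 and 22.4 FPKM in the minusD libraries, at -0.61 ± 0.50 (SE; limma adjusted p = 0.723). For 14 of 25 T and NK members minusD 3 was the highest library. Cd8a had 5.61, 4.65, 2.41 and 2.29 FPKM in the 3xD libraries, against 3.47, 4.65 and 8.76 FPKM in the minusD libraries, and Cd4 had 3.98, 2.67, 1.38 and 2.13 FPKM in the 3xD libraries, against 2.14, 3.25 and 3.53 FPKM in the minusD libraries. Itgae had 3.77, 3.63, 0.491 and 1.99 FPKM in the 3xD libraries, against 2.97, 3.96 and 3.24 FPKM in the minusD libraries, and Klrd1 had 4.79, 7.19, 4.07 and 1.75 FPKM in the 3xD libraries, against 2.65, 3.26 and 7.67 FPKM in the minusD libraries. In all 4 the groups overlapped, with differences of -0.47, -0.20, -0.47 and -0.02. Ptprc had 12.8, 8.39, 5.12 and 9.24 FPKM in the 3xD libraries, against 6.52, 7.32 and 7.36 FPKM in the minusD libraries, at 0.24 ± 0.25 (SE; limma adjusted p = 0.759).

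The ileal B members spanned a wide range in both groups. Ms4a1 had 16.4, 6.60, 2.11 and 5.83 FPKM in the 3xD libraries, against 0.843, 10.4 and 8.84 FPKM in the minusD libraries, a difference of 0.30 ± 0.73 (SE; limma adjusted p = 0.895). Cd79a had 61.1, 18.4, 5.78 and 14.6 FPKM in the 3xD libraries, against 3.24, 32.5 and 37.9 FPKM in the minusD libraries, at 0.10 ± 0.92 (SE; limma adjusted p = 0.971). In both genes 3xD 1 was the highest and minusD 1 the lowest library. Cd79b had 34.4, 12.95, 1.33 and 10.4 FPKM in the 3xD libraries, against 3.97, 26.9 and 21.3 FPKM in the minusD libraries, at -0.45 ± 0.92 (SE; limma adjusted p = 0.874). Cr2 had 4.18, 1.52, 0.342 and 1.32 FPKM in the 3xD libraries, against 0.185, 2.83 and 2.40 FPKM in the minusD libraries, at 0.02 ± 0.53 (SE; limma adjusted p = 0.990), and Pou2af1 had 9.41, 5.16, 3.11 and 4.80 FPKM in the 3xD libraries, against 2.20, 5.76 and 9.003 FPKM in the minusD libraries, at 0.06 ± 0.42 (SE; limma adjusted p = 0.962). Across the 11 B members 3xD 1 was the highest library for 10 and minusD 1 the lowest for 8. Tnfrsf17 had 2.71, 1.51, 0.108 and 0.606 FPKM in the 3xD libraries, against 1.28, 1.76 and 4.65 FPKM in the minusD libraries, at -0.70 ± 0.45 (SE; limma adjusted p = 0.706), and was the 1 B member whose highest library was minusD 3. That difference was -0.31 without minusD 3, -0.42 without 3xD5720 and -0.996 without 3xD 1. Ms4a1 per Cd3e ran from 1.17 to 4.93 in the 3xD and 0.243 to 2.39 in the minusD libraries. All 8 MHC class II genes had a negative difference (median -0.41, and 0.43 with the scheme in the fit), and summed to 385 to 1909 FPKM in the 3xD and 696 to 3122 FPKM in the minusD libraries. All 9 exocrine pancreas markers had one too, with 0 called (median -1.59), at 9.86 to 85.2 FPKM in the 3xD and 44.2 to 1035 FPKM in the minusD libraries. The 7 epithelium markers also had negative differences (median -0.21, and 0.02 with the scheme in the fit). Their part, and that of follicle content, in the spread was not tested.

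**Figure D4:**
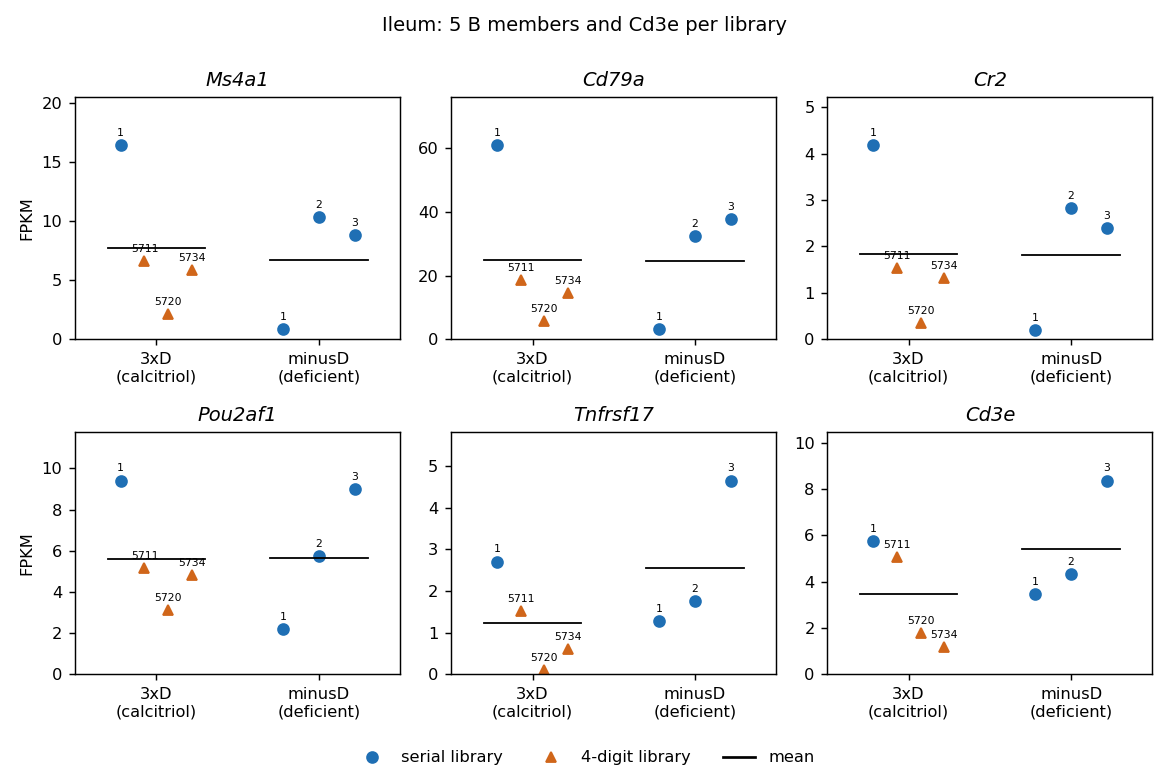
FPKM of Ms4a1, Cd79a, Cr2, Pou2af1, Tnfrsf17 and Cd3e in each ileal library, 3xD left and minusD right, with circles for serial and triangles for 4-digit libraries, numbers above the points and lines at group means. Cd79a runs from 5.78 to 61.1 FPKM in 3xD and from 3.24 to 37.9 FPKM in minusD libraries.

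Only the serial scheme holds both ileal groups. Of 3xD 1 against the 3 serial minusD libraries, 5 of 25 T and NK and 0 of 11 B members were lower, with median differences of 0.27 and 1.07, against 48.5% of all genes lower. 3xD 1 lay above all 3 for 8 T and NK and 10 B members, against 15.5% of all genes. With the scheme in the fit, which then rests on 3xD 1 alone, the medians were 0.31 and 1.07, so that the T and NK median turned from negative to positive, and 0 members were called (0% of all genes). The 3 4-digit 3xD libraries all lay below 3xD 1 for 20 T and NK and 11 B members, against 25.2% of all genes, and above it for 0, against 27.7%. The treatment difference in the ileum therefore cannot be told apart from the scheme for these genes.

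In the colon the members were mostly lower in the 3xD libraries, with medians nearer 0 than in the duodenum, and 0 were called. Of 18 tested T and NK members 15 had a negative difference, with a median of -0.28, and all 6 tested B members of 11 had one, with a median of -0.41. Over all 12746 genes tested the median was -0.01, 52.7% were lower and limma called 0%, as did voom. At an unadjusted p under 0.05, 3 T and NK members (Itgae, Il2rb and Cd247) and 1 B member (Ms4a1) were lower and 0 were higher, against 2.93% and 2.92% of all genes. Itgae had 0.549, 0.438, 0.366 and 1.64 FPKM in the 3xD libraries, against 2.89, 2.66, 1.67 and 1.47 FPKM in the minusD libraries, a difference of -0.88 ± 0.25 (SE; limma adjusted p = 0.725). Only 3xD5734 reached the range of the minusD libraries. Il2rb had 1.14, 0.832, 0.984 and 0.775 FPKM in the 3xD libraries, against 1.77, 1.53, 1.54 and 1.54 FPKM in the minusD libraries, at -0.43 ± 0.12 (SE; limma adjusted p = 0.742), and Cd247, the zeta chain, had 1.10, 0.741, 0.936 and 0.832 FPKM in the 3xD libraries, against 1.53, 1.73, 1.47 and 1.25 FPKM in the minusD libraries, at -0.39 ± 0.13 (SE; limma adjusted p = 0.808). These 2 were the members whose groups were fully apart, against 2.32% of all genes, and 0 were apart in the other direction, against 2.22%. Their differences were -0.28 among serial and -0.45 among 4-digit libraries for Il2rb, and -0.29 among serial and -0.29 among 4-digit libraries for Cd247. Ms4a1 had 1.51, 1.16, 1.65 and 2.83 FPKM in the 3xD libraries, against 3.11, 2.45, 2.74 and 2.39 FPKM in the minusD libraries, at -0.43 ± 0.19 (SE; limma adjusted p = 0.846). Cd79a had 13.1, 3.45, 6.58 and 7.28 FPKM in the 3xD libraries, against 13.4, 9.14, 12.5 and 9.995 FPKM in the minusD libraries, at -0.62 ± 0.31 (SE; limma adjusted p = 0.863), and Cd79b had 5.30, 2.11, 3.56 and 5.47 FPKM in the 3xD libraries, against 7.23, 3.92, 7.12 and 4.61 FPKM in the minusD libraries, at -0.42 ± 0.27 (SE; limma adjusted p = 0.887). Without 3xD5711 the difference of Cd79a was -0.34 and that of Cd79b -0.20, and without 3xD 1 they were -0.89 and -0.54. The T and NK median was -0.46 without 3xD 1, and the B median was -0.26 without 3xD5711. As in the other regions, all 9 exocrine pancreas markers had a negative difference (median -0.99), and so had all 7 tested MHC class II genes (median -0.46, and 0.14 with the scheme in the fit). The summed pancreas level was 136 to 27688 FPKM in the 3xD and 190 to 5028 FPKM in the minusD libraries. Its highest value was thus in a 3xD library, one with a 4-digit number, despite the negative median. The part of the pancreas and MHC class II transcripts in the lymphocyte differences was not tested.

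The colonic granzymes separated by naming scheme and not by treatment. Gzmb had 4.93, 0.926, 0.251 and 0.436 FPKM in the 3xD libraries, against 4.88, 4.45, 3.65 and 0.257 FPKM in the minusD libraries. These rested on 180, 20, 5 and 11 recovered reads in the 3xD and on 193, 178, 153 and 6 in the minusD libraries. Both 3xD 1 and minusD 1, 2 and 3 were high, and all 4 libraries with 4-digit numbers were low. Only serial libraries reached 1 FPKM, so Gzmb entered the test of the scheme solely through the group where it was high. In a fit with treatment, the 4-digit libraries differed from the serial ones by -2.02 ± 0.19 (SE; limma adjusted p = 0.0242), the only member called, against 0.149% of all genes. The treatment difference of Gzmb was -0.80 without and 0.22 ± 0.19 with the scheme in the fit. The call was lost without 3xD 1 (adjusted p = 0.152), without minusD 2 (0.105), without minusD 3 (0.0658) and by voom on recovered reads (0.0548), with values between -3.55 and -1.96 over all the alternatives. Without minusD5718, where the comparison within a treatment rests on 3xD 1 alone, 9 members were called, against 19.2% of all genes. This comparison of schemes was chosen after seeing the data.

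Gzma in the colon had 13.4, 4.26, 1.61 and 0.670 FPKM in the 3xD libraries, against 14.5, 11.97, 5.55 and 1.21 FPKM in the minusD libraries. It also separated the schemes, by -2.33 ± 0.45. Cd8a had 3.02, 1.32, 0.784 and 1.15 FPKM in the 3xD libraries, against 3.21, 2.60, 2.02 and 0.816 FPKM in the minusD libraries, with -0.97 ± 0.17, and Cd8b1 was at 0.144 to 1.90 FPKM in the 3xD and 0.355 to 1.57 FPKM in the minusD libraries, with -0.97 ± 0.19. The adjusted p of these scheme differences by limma was 0.0761, 0.0736 and 0.0788. Colonic Cd8b1 reached 1 FPKM in serial libraries only, so it too was tested solely through the group where it was high. Cd5 and Cd6, related receptors that damp T cell signalling, were under the filter, and the 4-digit libraries held 3 to 5 recovered Cd5 reads, against 37 to 50 in the serial ones. Among the B members, Pou2af1 had 4.77, 2.16, 1.69 and 2.56 FPKM in the 3xD libraries, against 5.15, 4.08, 4.33 and 2.21 FPKM in the minusD libraries, with -0.83 ± 0.15. Tnfrsf17 had 4.63, 1.20, 0.654 and 0.687 FPKM in the 3xD libraries, against 2.19, 2.44, 1.96 and 0.743 FPKM in the minusD libraries, with -1.25 ± 0.21. Fcer2a was listed at 0 in all 4 4-digit libraries, against 17 recovered reads in 3xD 1 and 87, 30 and 109 in the serial minusD libraries. In all, 17 of 37 members (14 T and NK and 3 B) had every 4-digit library below every serial library, against 5.99% of the 12746 genes past the filter. The reverse order was found in 0 members, against 7.36%. The count of members includes some below the filter, such as Cd5, while the shares leave such genes out. At an unadjusted p under 0.05, 9 T and NK and 2 B members were lower in the 4-digit libraries, against 10.9%, and Ptprc was higher, against 15.7%. Duodenal members with every 4-digit library below every serial one numbered 10 (3.09% of all genes) and ileal ones 1 (6.96%), with 0 in the reverse order in either region (4.35% and 7.84%).

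**Figure D5:**
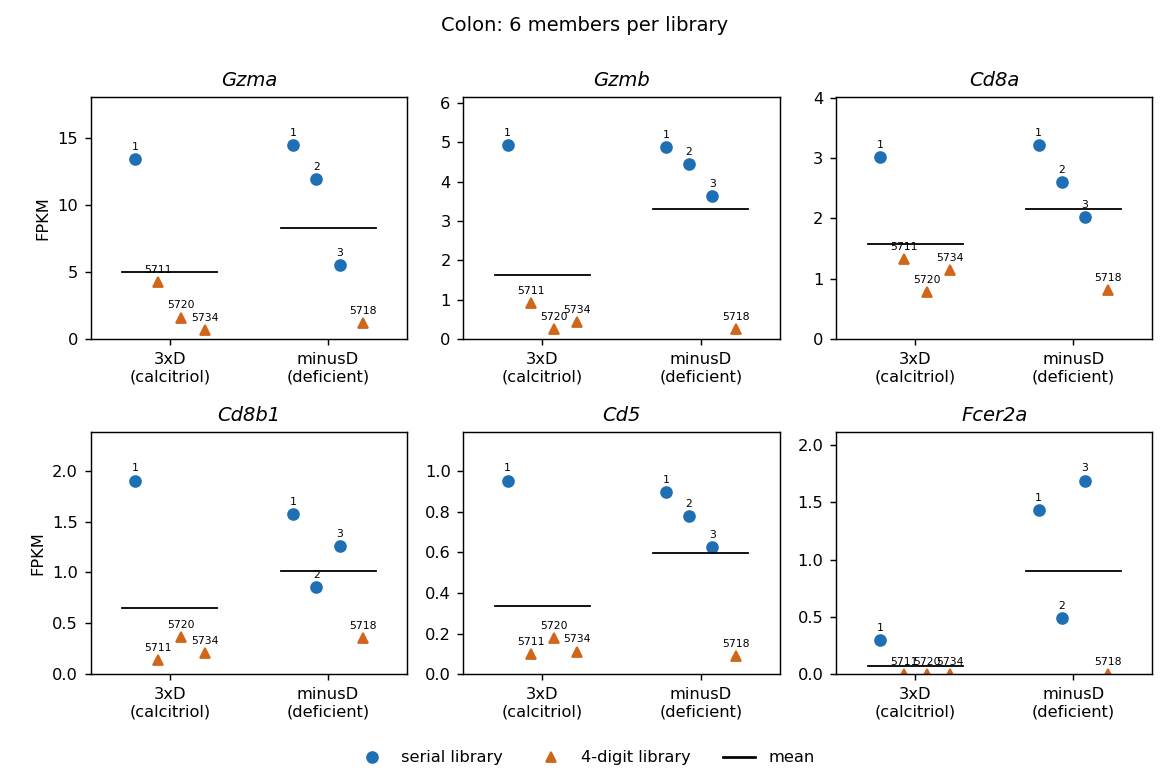
FPKM of Gzma, Gzmb, Cd8a, Cd8b1, Cd5 and Fcer2a in each colonic library, 3xD left and minusD right, with circles for serial and triangles for 4-digit libraries, numbers above the points and lines at group means. In all 6 panels each 4-digit library of either treatment lies below each serial one.

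Among the general T cell genes of the colon, some separated the schemes and others overlapped. Cd3e had 2.52, 1.56, 0.850 and 1.38 FPKM in the 3xD libraries, against 2.80, 2.01, 1.61 and 1.36 FPKM in the minusD libraries, with a treatment difference of -0.21 and a scheme difference of -0.52 ± 0.20. Cd4 had 1.84, 1.60, 0.972 and 0.875 FPKM in the 3xD libraries, against 2.14, 2.05, 1.74 and 1.40 FPKM in the minusD libraries, at -0.30 and -0.36 ± 0.16. For both genes every 4-digit library lay below every serial one. Cd3d, Cd247, Zap70 and other members overlapped between the schemes, among them Il2rb (-0.12 ± 0.13), Itgae (-0.14 ± 0.30) and Ms4a1 (0.01 ± 0.22). Klrd1 had 3.92, 3.96, 2.20 and 3.86 FPKM in the 3xD libraries, against 3.22, 2.04, 2.61 and 2.98 FPKM in the minusD libraries, with a scheme difference of -0.03 ± 0.22. Cr2, under the filter, was at 0.782, 0.440, 0.278 and 0.797 FPKM in the 3xD libraries, against 1.09, 0.691, 0.780 and 1.02 FPKM in the minusD libraries. Ptprc had 0.359, 6.10, 3.30 and 6.10 FPKM in the 3xD libraries, against 6.53, 3.13, 4.84 and 5.66 FPKM in the minusD libraries, and 3xD 1 was far below the other libraries. That library stood apart in the colon beyond the members: it lay below all 3 serial minusD libraries for 38.1% and above all 3 for 34.2% of genes, against 19.4% and 19.3% in the duodenum. It was below them for 7 T and NK and 2 B members and above them for 10 and 1.

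Within the colonic schemes the median treatment differences were small, while single members differed by more and in both directions. Ptprc differed by -2.06 among serial and -0.15 among 4-digit libraries. The median of T and NK members was 0.16 among serial and -0.08 among 4-digit libraries, that of B members -0.06 and -0.22, and 51.6% and 51.2% of all genes were lower. With the scheme in the fit the medians were 0.09 and -0.11, so that the T and NK median turned positive, and 0 members were called, against 0.0157% of all genes. Within one treatment, the 4-digit 3xD libraries all lay below 3xD 1 for 19 of 25 T and NK and 8 of 11 B members, against 36.7% of all genes, and above it for 1 and 0, against 38.9%. The 4-digit minusD library lay below all serial minusD libraries for 19 and 5, against 28.7%, and above them for 2 and 1, against 32.5%. The 4-digit 3xD libraries all lay below minusD5718 for 8 and 4, against 29%, and above it for 3 and 0, against 25.5%. Other gene lists differed by scheme in both directions. All 7 tested MHC class II genes had every 4-digit library below every serial one (median -1.21), against 5.99% of all genes. Of 12 macrophage and dendritic cell markers, 6 were lower at an unadjusted p under 0.05 (median -0.51), against 10.9%, and the smooth muscle markers had a median of -1.04. Among the lists that went the other way, 3 of 8 tested epithelial ligands of intraepithelial lymphocytes were higher at an unadjusted p under 0.05 (median 0.51), against 15.7%. So were 2 of 3 ileum markers (median 1.00). The summed level of 8 MHC class II genes was 192 to 491 FPKM in 4-digit 3xD libraries and 1138 FPKM in 3xD 1, and 428 FPKM in minusD5718 and 640 to 825 FPKM in the serial minusD libraries. For these colonic genes scheme and depth cannot be told apart. Sex followed the scheme in part, with more Xist than Ddx3y in 3 of 4 4-digit and 0 of 4 serial libraries, and its part was not tested.

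Lymphocyte genes outside the 37 also mostly had negative differences in the duodenum and colon, but in the colon only the B genes kept a negative median with the scheme in the fit. Of 38 further T and NK genes 16 were tested in the duodenum, where 15 had a negative difference (median -0.33). The ileum had 15 tested (12 negative, -0.19), the colon 12 (10 negative, -0.17). For 22 further B genes the duodenum had 17 tested (15 negative, median -0.48), the ileum 18 (10 negative, -0.06) and the colon 13 (11 negative, -0.16). With the scheme in the fit the T and NK medians were -0.16 (duodenum), 0.06 (ileum) and 0.09 (colon), so that the ileal and colonic ones turned positive. Those of the B genes were -0.27, 0.93 and -0.09, and the ileal one turned positive. None of these genes was called by limma in the fit without the scheme. At an unadjusted p under 0.05, 8 of 17 further B genes and 1 of 16 further T and NK genes were lower in the duodenum, against 5.37% of all genes, so that the T and NK count was near the background. In the ileum 0 were, against 2.74%, and in the colon 1 of each list, against 2.93%. Bcl11b, a transcription factor of the T lineage, stood in the duodenum at 0.683 to 1.71 FPKM in the 3xD libraries, against 1.40 to 3.21 FPKM in the minusD libraries, a log2 difference of -0.59 ± 0.22 (SE; limma adjusted p = 0.499). Cd37, a tetraspanin of B cells, stood in the duodenum at 1.58 to 7.002 FPKM in the 3xD libraries, against 5.97 to 9.20 FPKM in the minusD libraries, a log2 difference of -1.01 ± 0.31 (SE; limma adjusted p = 0.499). H2-Ob, which modulates peptide loading in B cells, stood there at 0.202 to 2.96 FPKM in the 3xD libraries, against 3.19 to 3.74 FPKM in the minusD libraries, a log2 difference of -0.94 ± 0.31 (SE; limma adjusted p = 0.499), with groups fully apart. Within the serial and the 4-digit libraries the differences were -0.50 and -0.17 for Bcl11b, -0.18 and -1.03 for Cd37 and -0.16 and -1.18 for H2-Ob.

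Genes that draw lymphocytes to the gut had differences of both signs. Of 19 trafficking and lymphoid tissue genes, the duodenum had 16 tested (12 negative), the ileum 18 (10) and the colon 14 (6), with medians of -0.26, -0.04 and 0.07 (-0.22, 0.46 and 0.13 with the scheme in the fit), and 0 were called by limma. Ccl20, the epithelial chemokine that attracts CCR6-bearing cells to follicles, stood in the duodenum at 9.96 to 15.1 FPKM in the 3xD libraries, against 5.34 to 10.7 FPKM in the minusD libraries, a log2 difference of 0.64 ± 0.20 (SE; limma adjusted p = 0.499). In the colon its levels were 4.61 to 7.99 FPKM in the 3xD libraries, against 2.63 to 4.28 FPKM in the minusD libraries, a log2 difference of 0.66 ± 0.19 (SE; limma adjusted p = 0.725), with groups fully apart. Ccl25, the ligand of the gut-homing receptor CCR9, stood in the colon at 10.9 to 18.4 FPKM in the 3xD libraries, against 4.75 to 10.2 FPKM in the minusD libraries, a log2 difference of 0.61 ± 0.24 (SE; limma adjusted p = 0.846), also with groups apart. The lymphotoxin gene Ltb stood in the duodenum at 1.69 to 7.003 FPKM in the 3xD libraries, against 5.61 to 8.27 FPKM in the minusD libraries, a log2 difference of -0.79 ± 0.29 (SE; limma adjusted p = 0.499). Within the serial and the 4-digit libraries, duodenal Ccl20 differed by 0.88 and 0.57, colonic Ccl20 by 1.09 and 0.31, colonic Ccl25 by 0.51 and 0.50 and duodenal Ltb by 0.01 and -1.09. Of 7, 8 and 8 tested epithelial ligands of intraepithelial lymphocytes, 6, 3 and 6 had a negative difference in the duodenum, ileum and colon, with 0 called and medians of -0.34, 0.04 and -0.21 (-0.30, 0.04 and -0.42 with the scheme in the fit).

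Whether the response of the members differed between regions was tested as interaction contrasts over the 23 libraries. limma called 0 members in the duodenum minus colon, duodenum minus ileum and ileum minus colon contrasts, against 0% of all genes. At an unadjusted p under 0.05 there were 1, 0 and 0 members, against 1.96%, 4.53% and 3.38% of all genes. The 1 was Il7r, with a difference of 0.86 ± 0.38 between duodenum and colon (SE; limma adjusted p = 1.00). The medians over tested T and NK members were -0.32, -0.07 and -0.15 and over B members -0.43, -0.62 and 0.29. These contrasts were not fitted with the scheme as a term. With the library number as a block the calls were again 0, and 1, 1 and 0 members had an unadjusted p under 0.05.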

How the data were processed

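Bulk RNA-seq of mouse duodenum, ileum and colon was taken from the gene tables of FPKM that the authors deposited (21441 genes each). Per the submitters' processing notes, mm9 was the build, and DESeq2, DESeq 1.14.0 and kallisto 0.45.0 were the tools. Columns called vehicle were taken as minusD, since the tables are named for minusD and 3xD. The 8-library ileum table equalled the duodenum table in all 171528 values, so the 7-library ileum table was used. Genes that reached 1 FPKM in 3 or more libraries entered a fit per region on log2(FPKM + 1), whose differences understate those of low genes, with limma 3.58.1 (R 4.3.3; lmFit and eBayes with trend, two-sided, Benjamini-Hochberg over all genes, 0.05). Whole reads were recovered within a tolerance of 0.0001 for 83.1%, 83.0% and 83.0% of genes and for 29 of 37 members, and were tested with limma-voom as an alternative. Scripts were checked on simulated data. Tests of the naming scheme itself were added after seeing the data. The members and gene lists were chosen with earlier results of these data known. Every member may be named; every-library values are given for type-defining members and, per region, the 3 T and NK and 3 B members with the smallest p. Deviations of libraries that shared a number were correlated between regions. The correlation was over 0.1 for 7 of 7 duodenum and ileum pairs, with a lowest value of 0.106. It was over 0.1 for 7 of 8 duodenum and colon pairs and 6 of 7 ileum and colon pairs. No correlations of libraries with different numbers are given for comparison, and the naming schemes recur in every region. These values therefore cannot show that a shared number means the same mouse.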

Additional observations from a re-analysis of the deposited data

Results flagged for a closer look

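A single library lay far from the other 3 of its group, by the ratio of its gap to the group's range, for 20 of 185 member values over groups of 4. The cutoff was set for about 1 in 20 independent values. The members share their libraries, and each 3xD group mixes 1 serial with 3 4-digit libraries, so the count cannot be read against that rate. Most of the flagged values were in 3xD 1, the serial library in its group. In the colon 3xD 1 stood above the other 3xD libraries for Cd8b1 (1.90 FPKM), Lat (3.80 FPKM), Gzmb (4.93 FPKM), Nkg7 (8.54 FPKM), Cd5 (0.954 FPKM), Cd6 (0.710 FPKM), Fcer2a (0.303 FPKM) and Tnfrsf17 (4.63 FPKM). In the ileum it did so for Blk (4.98 FPKM) and Pax5 (3.43 FPKM), and in the duodenum for Cd28 (0.738 FPKM) and Pax5 (0.939 FPKM). Other colonic 3xD values that stood apart were Klrd1 (2.20 FPKM) and Cd7 (2.66 FPKM) in 3xD5720 and Itgae (1.64 FPKM) in 3xD5734. Among minusD libraries, minusD 3 stood high in the duodenum for Cd3d (10.5 FPKM), Cd3g (35.0 FPKM) and Cd79b (14.8 FPKM). In the colon minusD 1 stood apart for Il2rb (1.77 FPKM) and minusD5718 for Prf1 (0.0614 FPKM). What these values rest on was not tested.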

How the results depend on the processing

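The number of members called for treatment was 0 in each region under every alternative run. The number of duodenal genes called was 1 with a filter on the mean, with the naming scheme in the fit or with a pseudocount of 0.1, 0 by voom, and 1 to 4 with a library left out. The duodenal B median was -1.41 with a pseudocount of 0.1 and -1.53 by voom. In the ileum the scheme in the fit gave medians of 0.31 (T and NK) and 1.07 (B) and turned Lck to 0.36, Lat to 0.37, Tnfrsf17 to 0.17 and Cd79b to 1.28, and 1 gene was called with no filter. With a library left out, ileal Ms4a1 ran from -0.54 (without minusD 1) to 0.77 and was -0.12 without 3xD 1. Ileal Cd79b ran from -1.22 to 0.29 (without 3xD5720) and was 0.02 without minusD 2. In the colon 2 genes were called with the scheme in the fit, and 0 to 3 with a library left out. By naming scheme 2 colonic members were called with no filter, 0 by voom and 0 to 9 with a library left out. The cause was not tested. No paired analysis was possible for 3xD against minusD because these groups share only the number 1. For the interactions, which share library numbers between regions, the replicate block left 0 members called. With a library left out, the difference moved by over 1.5 times or changed sign for 16 of 29 tested members in the duodenum, 34 of 34 in the ileum and 20 of 25 in the colon, and the sign changed for 1, 17 and 7. At 11290524 to 22342749 recovered reads, colonic Gzmb rested on as few as 5 reads in a library, which limits its precision there.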
